A study of Mus musculus with 24 samples.

Results

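Matricellular and matrix remodelling genes of the heart were read here as a set of 10, Timp1, Adam8, Tnc, Wisp1, Thbs3, Postn, Sparc, Fn1, Lox and Ltbp2, out of 24421 genes in the count files. The genes were listed by symbol, and the list was drawn up with a contrast of the genotypes labelled Acadl knockout and Acadvl knockout in view, so values from that contrast are given as a description only. Comparisons of these knockouts with a control reuse the same knockout libraries. Their p-values and counts for the 10 genes are therefore not independent of how the list was chosen. Acadl and Acadvl encode the long-chain and very-long-chain acyl-CoA dehydrogenases (LCAD and VLCAD), which start mitochondrial oxidation of long fatty acids. Heart RNA from male mice, 14 weeks old, fed chow and of a mixed strain (C57BL/6N for the most part, with some 129) was sequenced after polyA capture, 1 library a sample. The labels give 4 libraries as Acadl wt / Acadvl wt (wild type), 4 as Acadl Het / Acadvl wt, 3 as Acadl Het / Acadvl Het, 4 as Acadl KO / Acadvl wt, 5 as Acadl KO / Acadvl Het and 4 as Acadl Het / Acadvl KO. Thus every Acadvl KO sample also carried 1 disrupted copy of Acadl, and Acadl Het / Acadvl wt is its matched control. The labels do not say how either allele was made or which cells lack it.

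Matricellular proteins are secreted into the extracellular matrix but signal to cells rather than bear load, and most are scarce in the resting adult heart and made in large amounts after injury. The matrix itself is laid down by fibroblasts as fibronectin and collagen, stiffened by crosslinking enzymes, and taken apart by metalloproteinases that tissue inhibitors hold in check. Latent TGF-beta is kept in this matrix and, once released, drives fibroblasts to make more of it. In whole-heart RNA, fewer cells of a type and less RNA per cell cannot be told apart.

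The 250 bases before the start site are shown for Tnc and Timp1, whose levels ran closest together over the libraries, and for Adam8, whose level differed most between Acadvl KO and both controls. They come from RefSeq on GRCm38.p6, each read 5′ to 3′ on the gene's own strand, and capitals mark matches to the searched motifs.

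Tnc (chr4:64047016-64047265, minus strand): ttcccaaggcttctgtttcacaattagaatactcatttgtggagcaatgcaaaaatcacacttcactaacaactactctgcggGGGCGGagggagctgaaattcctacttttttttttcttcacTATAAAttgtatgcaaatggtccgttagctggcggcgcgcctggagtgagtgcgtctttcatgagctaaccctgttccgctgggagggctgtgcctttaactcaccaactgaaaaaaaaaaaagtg

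Timp1 (chrX:20869916-20870165, plus strand): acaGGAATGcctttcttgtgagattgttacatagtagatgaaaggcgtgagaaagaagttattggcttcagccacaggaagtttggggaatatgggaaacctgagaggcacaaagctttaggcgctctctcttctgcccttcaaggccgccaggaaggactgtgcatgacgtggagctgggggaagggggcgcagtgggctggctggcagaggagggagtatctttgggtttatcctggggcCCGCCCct

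Adam8 (chr7:139992563-139992812, minus strand): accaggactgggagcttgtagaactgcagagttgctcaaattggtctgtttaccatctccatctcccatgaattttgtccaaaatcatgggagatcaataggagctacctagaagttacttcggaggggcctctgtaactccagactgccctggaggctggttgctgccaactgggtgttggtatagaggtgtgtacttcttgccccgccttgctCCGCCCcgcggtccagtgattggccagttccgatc

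Of the 10 genes, 7 matched the promoter table, with 9 windows. Both strands were searched for 6 motifs. GGGCGG, the core bound by Sp1, was in 6 of the 9 windows, from 5 of the 7 genes (CCGCCC is the same motif on the other strand). Of all 32851 windows of that length, 32.7% held it. TATAAA was in 3 of the 9 windows, against 12.4% of all windows. It lay 126 bases before the Tnc start site shown and in 1 window of Postn. The windows of Tnc overlap and share both sites. Timp1 held GGAATG, the TEAD core, which 12.6% of windows held. The AP-1 letters TGANTCA (6.75% of windows), the composite ATF4 and C/EBP letters TGATGNAA (3.45%) and the CArG box of serum response factor (1.47%) were in 0 of the 9 windows. These are matches of letters in a short window and show neither binding nor its absence.

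Libraries held 34320838 to 51743114 counts. Acadvl reads were lowest under the Acadvl KO label but not absent, with a mean of 599 CPM (reads of a gene relative to all reads of its library, scaled between libraries by TMM) in Acadl Het / Acadvl KO and 1577 in wild type. They were at 1079 CPM in Acadl Het / Acadvl Het, 1430 in Acadl KO / Acadvl Het and 2115 in Acadl KO / Acadvl wt. Acadl reads went against their label, with 1894 CPM in Acadl KO / Acadvl wt and 1358 in wild type. Which part of the gene was deleted is not stated in the labels, so this count does not check the label, and the groups are named as labelled throughout. Whether each sample was a different mouse is not stated in the labels, and the p-values then speak only of the spread among the libraries. Isolation batch 1 held 9 libraries and batch 2 held 15, and each genotype was in both. Liver albumin (Alb) passed 10 CPM in 6 libraries, namely all 3 of Acadl Het / Acadvl Het, replicate 2 of Acadl Het / Acadvl KO, and replicates 2 and 3 of Acadl KO / Acadvl wt. Reads of the ribosomal RNA precursor Rn45s made up 17.3% of counts in replicate 1 of Acadl Het / Acadvl Het and 0.232% to 0.558% in the other 23 libraries. Defining cardiomyocyte genes were abundant in every genotype, with a summed level of 8 genes between 67800 and 88540 CPM.

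All 10 genes passed the filter on low counts. Per kilobase of exon, Sparc stood highest with a mean of 130 CPM per kb over the 24 libraries. It was followed by Fn1 (8.77), Postn (7.83), Timp1 (6.33), Lox (4.87), Thbs3 (3.12), Ltbp2 (0.890), Adam8 (0.670), Tnc (0.360) and Wisp1 (0.257), all on the same scale. Lowest and highest library differed by 1.84-fold for Sparc, 1.97-fold for Fn1 and 2.45-fold for Thbs3, but by 15.9-fold for Tnc, 16.5-fold for Adam8, 21.3-fold for Timp1 and 28.9-fold for Wisp1. Wisp1 rested on 5 to 155 reads a library and Tnc on 25 to 461, so their smallest values carry the largest counting error.

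Timp1 (X:20870166-20874737, plus strand, 890 exonic bases in the files) encodes a secreted inhibitor of matrix metalloproteinases. Wild type libraries had 3.82, 3.03, 2.51 and 2.99 CPM, and Acadl Het / Acadvl wt libraries had 12.0, 7.24, 6.28 and 15.4 CPM. Acadl KO / Acadvl wt libraries had 2.00, 1.93, 1.51 and 1.25 CPM, below every library of both those groups. With Acadl Het / Acadvl KO the spread was wide, at 3.68, 3.95, 26.7 and 6.49 CPM. Replicates 1 and 2 of that genotype were below every Acadl Het / Acadvl wt library, and replicate 3 was the highest of all 24 libraries. Acadl Het / Acadvl Het gave 3.19, 6.90 and 13.2 CPM and Acadl KO / Acadvl Het gave 1.5, 3.17, 2.09, 2.13 and 2.34 CPM, again without overlap. Timp1 therefore sat low in both genotypes labelled Acadl KO and high in most hearts heterozygous for Acadl. It fell by 2.60 ± 0.59 (log2 fold change ± SE) in Acadl KO / Acadvl wt against Acadl Het / Acadvl wt (edgeR quasi-likelihood test, Benjamini-Hochberg adjusted p = 0.00222). Against wild type the same libraries gave -0.87 ± 0.63, which did not pass (edgeR adjusted p = 0.293, 95% interval -2.11 to 0.36). Timp1 lies inside Syn1, a gene on the opposite strand, but shares 0 exonic bases with it.

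Adam8 (7:139978932-139992562, minus strand) encodes a membrane metalloproteinase and disintegrin best known from myeloid cells. Its levels were 0.96, 1.27, 0.67 and 0.86 CPM in wild type and 2.14, 1.39, 1.54 and 1.77 CPM in Acadl Het / Acadvl wt. All 4 libraries of Acadl Het / Acadvl KO were higher than all of these, at 9.99, 3.79, 5.36 and 3.45 CPM. They were also higher than every library of every other genotype. Adam8 rose by 2.55 ± 0.36 on the log2 scale (5.87-fold) against wild type (edgeR adjusted p = 3.48e-05) and by 1.68 ± 0.34 (3.21-fold) against Acadl Het / Acadvl wt (edgeR adjusted p = 0.00108). Acadl KO / Acadvl wt libraries had 0.93, 0.64, 0.61 and 0.95 CPM, below all libraries of Acadl Het / Acadvl wt but overlapping wild type. The fall against Acadl Het / Acadvl wt was 1.16 ± 0.43 on the log2 scale, a log2 fold change of -1.16 (edgeR adjusted p = 0.0398). Against wild type the difference was -0.29 ± 0.46 (edgeR adjusted p = 0.659). Acadl KO / Acadvl Het was split, with 0.92, 2.34, 2.18, 0.91 and 2.84 CPM, against 1.37, 1.20 and 2.07 CPM in Acadl Het / Acadvl Het.

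**Figure D1:**
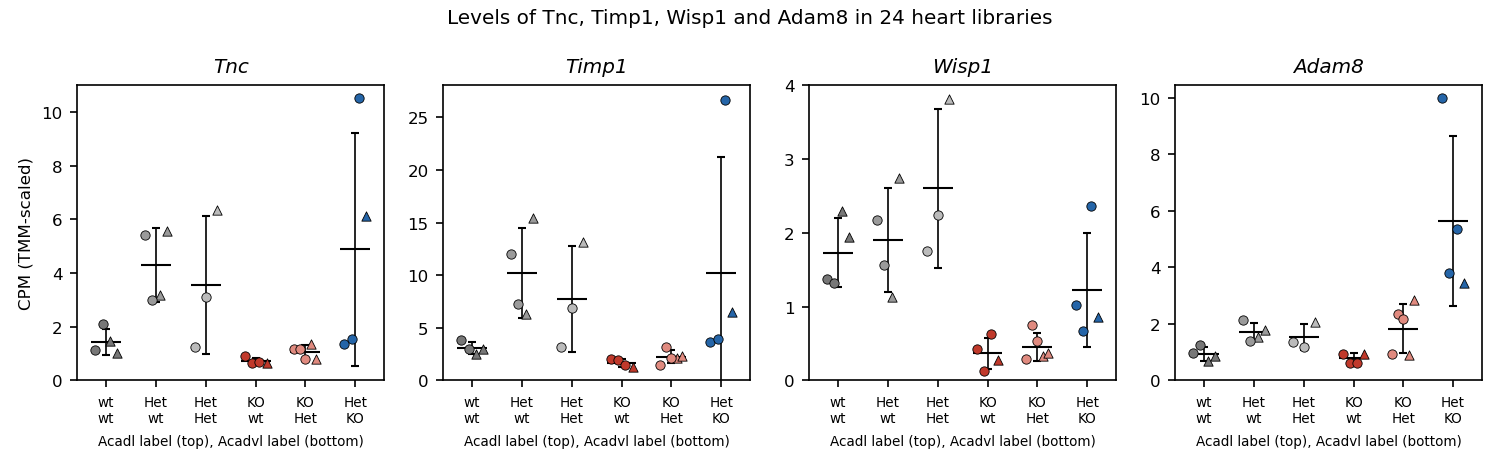
Level of Tnc, Timp1, Wisp1 and Adam8 (CPM, TMM-scaled, linear axis from 0) in each of 24 heart libraries by labelled genotype; circles are RNA isolation batch 2 and triangles batch 1, lines are means and bars 1 SD (a bar that would pass below 0 ends at the axis). Adam8 was at 3.45 CPM or more in all 4 Acadl Het / Acadvl KO libraries and at 2.84 or less elsewhere. Tnc and Timp1 in that genotype ranged from near wild type levels, below every Acadl Het / Acadvl wt library, to the highest of all libraries.

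Tnc (4:63959785-64047015, minus strand) encodes tenascin-C, a large matricellular glycoprotein that is scarce in the adult heart and reappears at sites of injury. Wild type libraries had 1.15, 2.12, 1.46 and 1.02 CPM and Acadl Het / Acadvl wt libraries 5.43, 3.0, 3.19 and 5.55 CPM. These 2 control groups did not overlap. Acadl KO / Acadvl wt gave 0.91, 0.66, 0.71 and 0.66 CPM, lower than both, and Acadl Het / Acadvl KO gave 1.34, 1.55, 10.5 and 6.13 CPM. In the last genotype replicates 1 and 2 were inside the wild type range and below every Acadl Het / Acadvl wt library. Its replicates 3 and 4 were above every wild type and Acadl Het / Acadvl wt library. Acadl Het / Acadvl Het had 1.26, 3.10 and 6.34 CPM and Acadl KO / Acadvl Het 1.18, 1.16, 0.80, 1.35 and 0.81 CPM. The fall of Tnc in Acadl KO / Acadvl wt was 2.47 ± 0.61 against Acadl Het / Acadvl wt, a log2 fold change of -2.47 (edgeR adjusted p = 0.00407). Against wild type it was -0.90 ± 0.68 (edgeR adjusted p = 0.320, 95% interval -2.24 to 0.44). In Acadl Het / Acadvl KO, Tnc rose by 1.85 ± 0.53 against wild type (edgeR adjusted p = 0.0128) and differed by 0.27 ± 0.47 from Acadl Het / Acadvl wt (edgeR adjusted p = 0.707). Timp1 gave the same picture, with 1.75 ± 0.54 against wild type (edgeR adjusted p = 0.0204) and 0.02 ± 0.51 against Acadl Het / Acadvl wt (edgeR adjusted p = 0.981). Both rises rested on replicate 3 of Acadl Het / Acadvl KO: without it Tnc stood at 1.07 (edgeR adjusted p = 0.0863) and Timp1 at 0.65 (edgeR adjusted p = 0.208) against wild type. Without that library Timp1 was also lower than in Acadl Het / Acadvl wt, at -1.08 (edgeR adjusted p = 0.0330), and Tnc was at -0.50 (edgeR adjusted p = 0.401).

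Wisp1 (15:66891393-66923199, plus strand) encodes CCN4, a secreted CCN-family protein induced by Wnt signalling. Its levels were 1.37, 1.32, 2.30 and 1.94 CPM in wild type and 2.17, 1.56, 1.13 and 2.74 CPM in Acadl Het / Acadvl wt. Acadl KO / Acadvl wt had 0.43, 0.13, 0.63 and 0.28 CPM, below all 8 of those libraries. Wisp1 fell by 2.30 ± 0.47 against Acadl Het / Acadvl wt (edgeR adjusted p = 0.000821) and by 2.18 ± 0.47 against wild type (edgeR adjusted p = 0.00127), both on the log2 scale. Acadl KO / Acadvl Het had 0.29, 0.76, 0.53, 0.34 and 0.37 CPM, and Acadl Het / Acadvl Het 1.75, 2.24 and 3.82 CPM. The fall there was of like size, 2.47 ± 0.43 (log2 fold change -2.47, edgeR adjusted p = 0.000193). Acadl Het / Acadvl KO libraries lay between, at 1.02, 0.67, 2.37 and 0.86 CPM, overlapping both controls, and gave -0.53 ± 0.38 and -0.41 ± 0.38 against Acadl Het / Acadvl wt and wild type (edgeR adjusted p = 0.322 and 0.444). Without its replicate 3 the first of these was -1.08 and passed (edgeR adjusted p = 0.0337). Wisp1 thus passed in Acadl KO / Acadvl wt against either control.

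Thbs3 (3:89215187-89226837, plus strand) encodes thrombospondin 3, a pentameric thrombospondin that also acts inside the secretory pathway of muscle cells. It varied little, from 9.19 to 12.1 CPM over the 8 libraries of wild type and Acadl Het / Acadvl wt. The range in Acadl KO / Acadvl wt was from 6.78 to 8.81 CPM and in Acadl KO / Acadvl Het from 6.34 to 9.48 CPM. Thbs3 fell by 0.46 ± 0.12 in Acadl KO / Acadvl wt against wild type (edgeR adjusted p = 0.00669), by 0.36 ± 0.13 against Acadl Het / Acadvl wt (edgeR adjusted p = 0.0304), and by 0.58 ± 0.13 in Acadl KO / Acadvl Het against Acadl Het / Acadvl Het (edgeR adjusted p = 0.00121). In Acadl Het / Acadvl KO it ran from 11.5 to 15.6 CPM, above all 4 libraries of Acadl Het / Acadvl wt, and rose by 0.36 ± 0.12 (edgeR adjusted p = 0.0371). Against wild type, whose libraries overlapped, the difference was 0.26 ± 0.12 (edgeR adjusted p = 0.119).

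Sparc (11:55394159-55420080, minus strand) encodes osteonectin, a collagen-binding matricellular protein made by fibroblasts and endothelium. It was the most even of the 10, from 277 to 313 CPM in the 8 libraries of wild type and Acadl Het / Acadvl wt. In Acadl KO / Acadvl wt it ran from 303 to 482 CPM, and in Acadl Het / Acadvl KO from 345 to 510 CPM. Sparc rose by a similar small amount in both: 0.38 ± 0.11 and 0.54 ± 0.11 against wild type (edgeR adjusted p = 0.0120 and 0.00156), and 0.35 ± 0.11 and 0.50 ± 0.11 against Acadl Het / Acadvl wt (edgeR adjusted p = 0.0221 and 0.00302), in that order. Both knockout genotypes share their controls in these values. Replicate 4 of each knockout, from isolation batch 1, was the highest of its group. Within batch 2 none of the 4 passed, with 0.22, 0.39, 0.16 and 0.34 in the order given (edgeR adjusted p = 0.266, 0.0666, 0.415 and 0.120).

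Postn (3:54361107-54391041, plus strand) encodes periostin, the classic product of activated cardiac fibroblasts. It passed in no comparison with a control. Acadl Het / Acadvl KO libraries had 28.7, 21.5, 38.2 and 65.1 CPM against 22.6, 28.7, 16.3 and 21.2 CPM in wild type. These ranges overlapped, and the difference was 0.79 ± 0.31 (edgeR adjusted p = 0.0656). Without replicate 2, the lowest of the knockout, it was 0.99 and passed. Libraries of Acadl KO / Acadvl wt ran from 14.9 to 27.4 CPM and overlapped wild type, at -0.14 ± 0.32 against wild type (edgeR adjusted p = 0.753).

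Fn1 (1:71585473-71653234, minus strand) encodes fibronectin, the provisional matrix on which collagen is assembled. Acadl Het / Acadvl KO libraries had 112, 67.9, 98.5 and 110 CPM. All other genotypes together ran from 57.0 to 79.5 CPM, so 3 of the 4 Acadvl KO libraries were above every other heart and replicate 2 was not. Fn1 rose by 0.46 ± 0.12 against wild type (edgeR adjusted p = 0.00719) and by 0.53 ± 0.12 against Acadl Het / Acadvl wt (edgeR adjusted p = 0.00310). Within batch 2 neither call held, at 0.47 and 0.41 (edgeR adjusted p = 0.0731 and 0.120), and the second was also lost when only the genotypes compared were fitted, at 0.52 (edgeR adjusted p = 0.0782). In Acadl KO / Acadvl wt the differences were -0.13 ± 0.12 and -0.06 ± 0.12 (edgeR adjusted p = 0.413 and 0.708). Fn1 thus passed with 1 of the 2 knockout labels, and the difference between those labels, which belongs to the contrast the list came from, is described below with no p-value.

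Lox (minus strand of chromosome 18, 52516060 to 52529867) encodes lysyl oxidase, which crosslinks collagen and elastin. It was the 1 gene of the set that rose in both genotypes labelled Acadl KO, each against a control with the same Acadvl copies. Wild type libraries had 12.7, 8.43, 14.7 and 15.7 CPM and Acadl KO / Acadvl wt libraries 23.1, 44.3, 21.2 and 21.4 CPM, with no overlap. Acadl Het / Acadvl Het gave 12.3, 11.2 and 14.6 CPM and Acadl KO / Acadvl Het gave 24.0, 54.0, 43.5, 20.9 and 67.5 CPM, also with no overlap. Lox rose by 1.15 ± 0.41 in the first pair (2.21-fold, edgeR adjusted p = 0.0339) and by 1.72 ± 0.43 in the second (3.30-fold, edgeR adjusted p = 0.00424). The first rise was lost without replicate 2 of Acadl KO / Acadvl wt or without replicate 1 or 2 of wild type, at 0.83 to 1.18. Acadl Het / Acadvl wt had 9.0, 13.3, 14.1 and 28.5 CPM, and its replicate 4 lay among the knockout values. Against it Acadl KO / Acadvl wt stood at 0.82 ± 0.41 (edgeR adjusted p = 0.128), and passed without that replicate, at 1.18 (edgeR adjusted p = 0.0309), or within batch 2, at 1.41 (edgeR adjusted p = 0.0244). Acadl Het / Acadvl KO libraries had 39.3, 24.1, 25.3 and 13.7 CPM, the lowest of them from isolation batch 1. They gave 1.05 ± 0.41 against wild type (edgeR adjusted p = 0.0627). Within batch 2 that difference was 1.49 (edgeR adjusted p = 0.0233), and with the lone batch 1 library it was -0.14.

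Ltbp2 (12:84783212-84876495, minus strand) encodes an elastic fibre protein, of the family named for binding latent TGF-beta, that is raised in failing hearts. Wild type libraries had 5.25, 3.70, 5.60 and 3.35 CPM, Acadl KO / Acadvl wt libraries 2.85, 2.44, 3.05 and 2.56 CPM, and Acadl Het / Acadvl KO libraries 5.92, 7.27, 11.9 and 14.7 CPM. The 3 ranges did not overlap, with Acadl KO / Acadvl wt lowest and Acadl Het / Acadvl KO highest. Neither difference from wild type passed, at -0.76 ± 0.49 and 1.13 ± 0.44 (edgeR adjusted p = 0.234 and 0.0593). The second passed by DESeq2, at 1.14 (adjusted p = 0.0440), and by limma voom, at 1.09 (adjusted p = 0.0463). Acadl KO / Acadvl Het had 5.20, 21.6, 3.95, 5.52 and 4.69 CPM, and its replicate 2 was the highest of all 24 libraries. In that library the summed level of 6 atrial cardiomyocyte genes was 1973 CPM, against 152 to 375 CPM in the other 4 of its genotype; the part of atrial tissue in the Ltbp2 value was not tested. Ltbp2 shares 694 exonic bases with D030025P21Rik on the opposite strand, and reads were counted without strand; that gene had 1 to 46 counts a library.

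**Figure D2:**
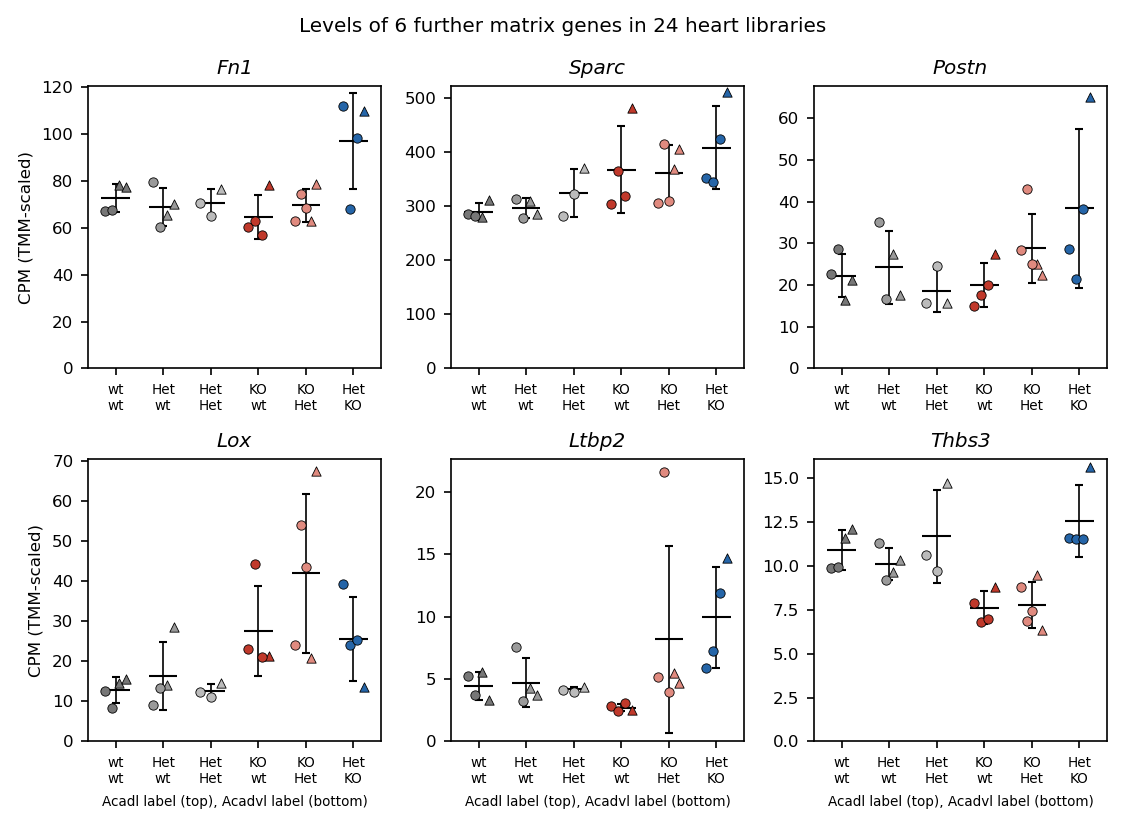
Level of Fn1, Sparc, Postn, Lox, Ltbp2 and Thbs3 (CPM, TMM-scaled, linear axes from 0) in each library by labelled genotype; circles are isolation batch 2, triangles batch 1, lines means and bars 1 SD. Thbs3 is low in both genotypes labelled Acadl KO, and 3 of 4 Fn1 values in Acadl Het / Acadvl KO lie above all other libraries. Mean Lox is 27.5 CPM in Acadl KO / Acadvl wt, 41.95 in Acadl KO / Acadvl Het and 25.6 in Acadl Het / Acadvl KO, beside 12.9 in wild type.

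The counts and medians of Acadl KO / Acadvl wt and Acadl Het / Acadvl KO, here and in the next paragraphs, share knockout libraries with the contrast that the list came from. That choice can move them the same way, so the shares of all genes beside them are no test of the set. Nor are the shares beside the other comparisons such a test. Counted over the set, 6 of the 10 genes passed in Acadl KO / Acadvl wt against Acadl Het / Acadvl wt, where 34.8% of all 15804 tested genes did. Sparc was the 1 that rose (18.1% of genes rose), and Tnc, Timp1, Wisp1, Thbs3 and Adam8 were the 5 that fell (16.7% fell). The median log2 fold change was -0.58 for the 10 and -0.01 for all genes. Leaving out any 1 of the 8 libraries left 4 or 5 calls. Those lost were Adam8 (without replicate 1, 2 or 3 of the knockout, or 1, 3 or 4 of the control, -1.23 to -1.04), Thbs3 (without replicate 2 or 3 of the knockout, or 1 or 2 of the control, -0.37 to -0.24) and Sparc (without replicate 4 of the knockout, or 3 or 4 of the control, 0.22 to 0.33). When the 6 libraries rich in Alb were dropped, 3 calls were made. Tnc, Timp1 and Wisp1 passed there at -2.46, -2.69 and -2.43 (edgeR adjusted p = 0.0190, 0.0145 and 0.00620), and within isolation batch 2 at -2.46, -2.39 and -2.20 (edgeR adjusted p = 0.0499, 0.0404 and 0.0112).

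Set against wild type, Acadl KO / Acadvl wt gave 4 calls of 10, close to the 37.2% of all genes. Lox and Sparc rose (19.6% of genes rose) and Wisp1 and Thbs3 fell (17.6% fell), with medians of -0.37 for the 10 and -0.02 for all. When only the genotypes compared were fitted, 7 genes passed. Tnc, Timp1 and Ltbp2 were added at -1.04, -0.97 and -0.71 (edgeR adjusted p = 0.0159, 0.00254 and 0.0253). The 37.2% belongs to the fit over all libraries, and no share of all genes was computed for this one. With the Alb libraries left out 1 gene passed, Wisp1; Lox stood at 0.80 (edgeR adjusted p = 0.264) and Wisp1 at -2.31 (edgeR adjusted p = 0.00794).

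Acadl Het / Acadvl KO gave 4 calls against Acadl Het / Acadvl wt, where 24.4% of all genes passed and 12.9% rose. Fn1, Sparc, Thbs3 and Adam8 rose and 0 of the 10 fell. Against wild type it gave 5 calls, where 28.3% of all genes passed and 15.1% rose. These 5 were Tnc, Timp1, Fn1, Sparc and Adam8, all higher. Medians over the 10 were 0.52 and 0.92, and over all genes 0.02 and 0.01. Both counts were 2 within isolation batch 2, where Adam8 passed at 1.87 and 2.52 (edgeR adjusted p = 0.0109 and 0.00244). Without replicate 3 of the knockout, 3 of the 10 passed against wild type. Thbs3 lost its call against Acadl Het / Acadvl wt without replicate 2 or 4 of the knockout or replicate 2, 3 or 4 of the control (0.29 to 0.38).

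The comparison of hearts that also carried 1 disrupted copy of Acadvl, Acadl KO / Acadvl Het against Acadl Het / Acadvl Het, used other libraries and gave 5 calls, where 40.6% of all genes passed. Lox rose (20.1% of genes rose), and Tnc, Timp1, Wisp1 and Thbs3 fell (20.5% fell). Tnc was at -1.72 ± 0.58 and Timp1 at -1.78 ± 0.57 (edgeR adjusted p = 0.0237 and 0.0175). Within isolation batch 2, 3 genes passed, with Tnc at -1.06 and Timp1 at -1.15 (edgeR adjusted p = 0.385 and 0.297). Without replicate 3 of Acadl Het / Acadvl Het, 3 also passed; Tnc was at -1.05 and Timp1 at -1.06. Tnc also lost its call without replicate 2 of that control (-1.73) or replicate 5 of Acadl KO / Acadvl Het (-1.58). Without replicate 1 of the control, the library rich in Rn45s, 5 passed. All 3 control libraries of this comparison were above 10 CPM of Alb, so it has no value without them. Some markers of other cells differed here too: 7 of 8 hepatocyte and 3 of 6 epicardial and mesothelial genes fell, where 20.5% of all genes did. Falls in 2 of 6 atrial, 2 of 7 valve and tendon and 2 of 9 fibroblast genes are too few to set apart from that share. Also 1 fibroblast gene rose, and of 9 macrophage genes 2 rose and 1 fell. Replicate 3 of the control had the highest epicardial and mesothelial sum (59.6 CPM, against 39.3 and 30.9) and valve and tendon sum (81.6 CPM, against 45.5 and 42.7) of its group. The part of these cells in the Tnc and Timp1 values was not tested.

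**Figure D3:**
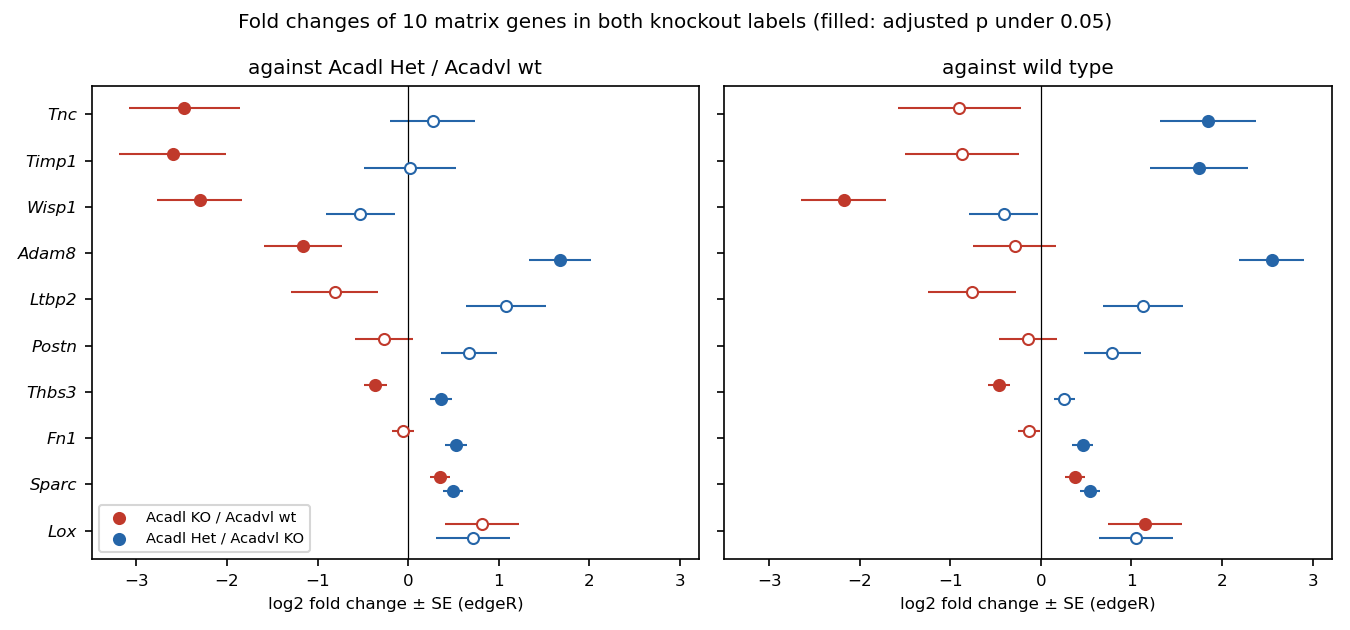
log2 fold change ± SE from edgeR for the 10 genes in Acadl KO / Acadvl wt (red) and Acadl Het / Acadvl KO (blue), against Acadl Het / Acadvl wt on the left and wild type on the right; filled points have an adjusted p under 0.05. Both colours in a panel share their control libraries. Tnc and Timp1 sit at -2.47 and -2.60 on the left and at -0.90 and -0.87 on the right in red, and Adam8 sits at 1.68 and 2.55 in blue.

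The contrast that the list was drawn from set Acadl KO / Acadvl wt directly against Acadl Het / Acadvl KO. Here 7 of the 10 were lower in Acadl KO / Acadvl wt, where 4.43% of all genes passed and 2.66% were lower; since the genes were chosen on it, nothing is read from that count. The log2 differences, Acadl KO minus Acadvl KO, were -2.84 for Adam8, -2.74 for Tnc, -2.62 for Timp1, -1.89 for Ltbp2, -1.77 for Wisp1, -0.72 for Thbs3 and -0.59 for Fn1. The other 3 were Postn at -0.94, Sparc at -0.15 and Lox at 0.09. Seen through their controls, the 7 genes were of different kinds. Adam8 and Fn1 lay above both controls in Acadl Het / Acadvl KO, and Wisp1 and Thbs3 lay below both in Acadl KO / Acadvl wt. Adam8 was also below Acadl Het / Acadvl wt in Acadl KO / Acadvl wt, and Thbs3 was also above that control in Acadl Het / Acadvl KO. Ltbp2 passed by edgeR against neither control in either genotype. Tnc and Timp1 were low against Acadl Het / Acadvl wt in the first genotype and high against wild type in the second. With Acadl KO / Acadvl Het in place of Acadl KO / Acadvl wt, 6 were lower, where 8.77% of all genes passed and 5.47% were lower. The differences ran from -2.24 for Tnc to -0.50 for Fn1, with Ltbp2 at -0.28. With 1 library left out, Ltbp2 ran from -1.08 to 0.07 there.

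One disrupted copy of Acadl alone, Acadl Het / Acadvl wt against wild type, gave 0 calls by edgeR among the 10 and among all 15804 genes (0%), and 541 genes had an unadjusted p under 0.05. DESeq2, which gave no adjusted p for Timp1 here, and limma voom also called 0 of the 10. In 3 genes, Tnc, Timp1 and Adam8, all 4 heterozygous libraries were higher than all 4 wild type libraries, and 1.88% of all genes were arranged so. Tnc differed by 1.57 ± 0.53 (2.97-fold, edgeR adjusted p = 0.927, unadjusted p = 0.00727), Timp1 by 1.73 ± 0.53 (3.32-fold, edgeR adjusted p = 0.927, unadjusted p = 0.00399) and Adam8 by 0.87 ± 0.39 (1.83-fold, edgeR adjusted p = 1.00, unadjusted p = 0.0385). These values sit beside the comparisons above, because the choice of control moves Tnc and Timp1 by these amounts. The other 7 genes were between -0.10 and 0.33.

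One disrupted copy of Acadvl added to Acadl Het gave 0 calls of the 10 by edgeR, DESeq2 and limma voom, against 1 gene of all (0.00633%), and 448 genes had an unadjusted p under 0.05. Added to Acadl KO it also gave 0 calls by edgeR among the 10 and among all genes (0%), with 1396 genes at an unadjusted p under 0.05. Ltbp2 differed most there, at 1.60 ± 0.45 (edgeR adjusted p = 0.294), and all 5 Acadl KO / Acadvl Het libraries were above all 4 of Acadl KO / Acadvl wt, which held for 1.01% of all genes. DESeq2 called Ltbp2 at 1.59 (adjusted p = 0.0470). Adam8 followed at 1.24 ± 0.41 (edgeR adjusted p = 0.376). With 1 library left out, the edgeR difference of Ltbp2 ran from 0.8 to 1.79. Replicate 2 of Acadl KO / Acadvl Het, the library with the high atrial sum, held 21.6 CPM of Ltbp2, next to 5.52 CPM. The test of whether the Acadl KO difference itself depended on the Acadvl copy gave 0 calls by edgeR among the 10 and among all genes (0%), and 0 of the 10 by DESeq2 and limma voom, and 817 genes had an unadjusted p under 0.05. Ltbp2 was at 1.78 ± 0.68 and Adam8 at 1.40 ± 0.58 in that test (edgeR adjusted p = 0.760 and 0.833). With 1 library left out they ran from 0.95 to 1.97 and from 1.2 to 1.83.

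The genes did not move as a block. Across 24 libraries, which share genotypes, batches and sequencing depth, Pearson's r of log2 CPM was 0.94 for Tnc with Timp1, the closest of 45 pairs, and 0.82 after each genotype's mean was removed. Timp1 with Wisp1 (0.76), Fn1 with Adam8 (0.74), Postn with Ltbp2 (0.74) and Tnc with Wisp1 (0.70) followed. In all, 14 pairs had r above 0.5 and 6 were below 0. Lox took part in 4 of those 6, with Thbs3 (-0.59), Wisp1 (-0.56), Tnc (-0.43) and Timp1 (-0.30), and Wisp1 in 2 more, with Sparc (-0.33) and Postn (-0.08). Fn1 with Adam8 kept 0.52 within genotypes and Ltbp2 with Adam8, at 0.58 over all libraries, had 0.00 within them. Genes outside the matrix lists whose log2 CPM ran closest to the mean z score of the 10 over the same libraries were Nckap1l (r = 0.91), Lrp1 (0.88), Ctsz (0.87), Emb (0.87), Pirb (0.86), Ccdc80 (0.86), Itgb2 (0.86), Ecm1 (0.85), Lyz1 (0.85, a close copy of Lyz2) and Alox5ap (0.85). That mean z score was highest in replicates 3 and 4 of Acadl Het / Acadvl KO, at 1.44 and 1.39, and between -0.86 and -0.34 in Acadl KO / Acadvl wt.

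**Figure D4:**
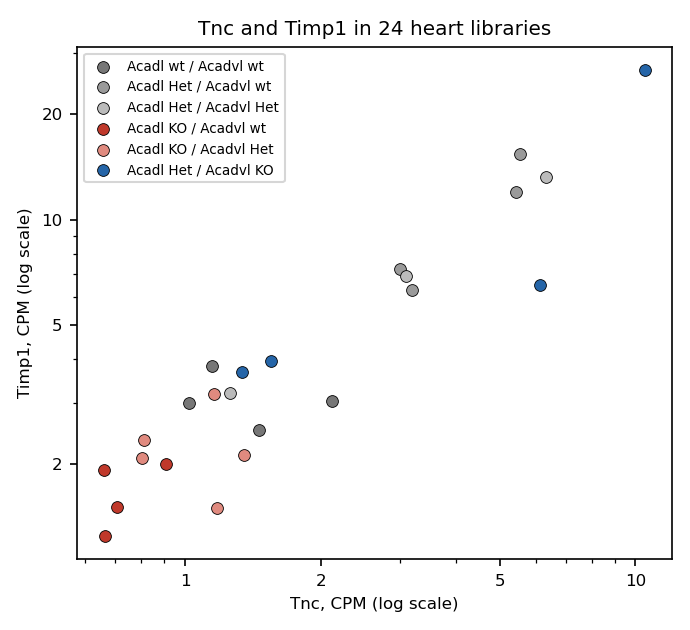
Tnc against Timp1 (CPM, both axes log) in 24 heart libraries, coloured by labelled genotype. Libraries labelled Acadl KO lie at the lower left and Acadl Het / Acadvl wt at the upper right, and Acadl Het / Acadvl KO spreads from 1.34 to 10.5 CPM of Tnc and from 3.68 to 26.7 CPM of Timp1 (r = 0.94 over all libraries, a description).

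Other matrix genes were read from 7 lists that hold 128 further genes, of which 126 were tested. In Acadl KO / Acadvl wt 14 rose and 28 fell against Acadl Het / Acadvl wt, and 19 rose and 20 fell against wild type. In Acadl Het / Acadvl KO 22 rose and 6 fell against the first control, and 22 rose and 8 fell against wild type. Median log2 fold changes over the 126 were -0.15, -0.15, 0.09 and 0.12 in that order, beside -0.01, -0.02, 0.02 and 0.01 over all genes. The shares called, 33.3%, 31.0%, 22.2% and 23.8%, were below the 34.8%, 37.2%, 24.4% and 28.3% of all genes. In the same order, 18.1%, 19.6%, 12.9% and 15.1% of all genes rose, and 16.7%, 17.6%, 11.5% and 13.2% fell. The counts of each list below are to be read beside these shares, and no list was tested as a set.

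Of 18 other matricellular genes, 2 rose and 3 fell in Acadl KO / Acadvl wt against Acadl Het / Acadvl wt. Sparcl1, the hevin relative of Sparc, fell by 0.76 ± 0.15, and Ctgf, the CCN2 growth factor partner of Wisp1's family, fell by 2.08 ± 0.49 from a control mean of 596 ± 515 CPM (SD, n = 4) to 124 ± 31.4 CPM (SD, n = 4). Thbs4 fell by 1.78 ± 0.53, while Thbs2 rose by 0.77 ± 0.23 (edgeR adjusted p from 0.000718 to 0.0138 for these 4). Against wild type, 3 rose and 2 fell, with Sparcl1 at -0.99 ± 0.15, Ctgf at -1.47 ± 0.47, Cyr61 (CCN1) at 1.42 ± 0.39 and Thbs2 at 0.69 ± 0.23. Members of the thrombospondin and CCN families thus went in both directions within the same hearts. In Acadl Het / Acadvl KO, Tgfbi, a TGF-beta induced adhesion protein, rose by 0.45 ± 0.13 and 0.53 ± 0.13 against the 2 controls (edgeR adjusted p = 0.0135 and 0.00409).

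Among 35 other proteases and inhibitors, 7 rose and 6 fell in Acadl KO / Acadvl wt against Acadl Het / Acadvl wt, where 18.1% of all genes rose and 16.7% fell. Against wild type 11 rose and 2 fell, where 19.6% of all genes rose and 17.6% fell. Adamts9 and Adamts5, which cleave proteoglycans, rose by 1.40 ± 0.19 and 0.94 ± 0.16 against the first control and by 1.54 ± 0.19 and 0.84 ± 0.16 against wild type (edgeR adjusted p = 2.04e-05, 0.000211, 7.09e-06 and 0.000507). In Acadl Het / Acadvl KO 6 rose and 1 fell against the first control, where 12.9% of all genes rose and 11.5% fell. Against wild type 11 rose and 2 fell, where 15.1% of all genes rose and 13.2% fell. Mmp14, a membrane collagenase, rose by 0.69 ± 0.12 and 0.80 ± 0.12 (edgeR adjusted p = 0.000429 and 8.92e-05).

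In the list of 21 other crosslinking and elastic fibre genes, Plod2, a lysyl hydroxylase that prepares collagen for crosslinking, fell in both knockouts: by 1.11 ± 0.08 and 1.13 ± 0.08 in Acadl KO / Acadvl wt and by 0.83 ± 0.08 and 0.85 ± 0.08 in Acadl Het / Acadvl KO, against Acadl Het / Acadvl wt and wild type (edgeR adjusted p from 1.65e-08 to 1.02e-06). Emilin2, an elastic fibre glycoprotein, fell in the same 4 comparisons, by 0.90 ± 0.17, 1.03 ± 0.17, 0.68 ± 0.17 and 0.80 ± 0.17. The microfibril gene Mfap5 rose in Acadl Het / Acadvl KO, by 0.63 ± 0.16 and 0.85 ± 0.16 (edgeR adjusted p = 0.00751 and 0.000689). List counts were 2 higher and 5 lower, and 2 and 4, in Acadl KO / Acadvl wt, and 5 and 2, and 3 and 2, in Acadl Het / Acadvl KO, in the same order of controls.

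Of 18 other genes of TGF-beta storage and signalling, 8 fell and 1 rose in Acadl KO / Acadvl wt against Acadl Het / Acadvl wt, and 7 fell and 1 rose against wild type, where 16.7% and 17.6% of all genes fell. The ligands Tgfb2 and Tgfb3 fell by 1.30 ± 0.27 and 0.69 ± 0.11 against the first and by 1.12 ± 0.27 and 0.75 ± 0.11 against the second (edgeR adjusted p = 0.000929, 0.000100, 0.00287 and 4.02e-05). In Acadl Het / Acadvl KO, 2 and 3 of the 18 rose and 0 fell; the ligand Tgfb1 rose by 0.41 ± 0.09 and 0.34 ± 0.09, and the receptor Tgfbr1 by 0.28 ± 0.09 and 0.30 ± 0.09 (edgeR adjusted p = 0.00216, 0.00798, 0.0332 and 0.0215).

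Among 17 receptors and partners of fibronectin, Itgb6 and Itgb1 fell in all 4 comparisons, Itgb6 with log2 fold changes of -2.94 ± 0.58 and -2.83 ± 0.58 in Acadl KO / Acadvl wt and -1.98 ± 0.53 and -1.87 ± 0.53 in Acadl Het / Acadvl KO. Itga5, the alpha chain of the classical fibronectin receptor, rose in Acadl Het / Acadvl KO by 0.70 ± 0.23 and 0.89 ± 0.23 (edgeR adjusted p = 0.0281 and 0.00607). The list of 8 collagens, named fibrillar, also holds Col8a1 and Col12a1, which are not fibrillar. In Acadl Het / Acadvl KO, 2 of the 8 rose and 1 fell against Acadl Het / Acadvl wt, where 12.9% of all genes rose and 11.5% fell. These were Col5a2 at 0.44 ± 0.14, Col8a1 at 0.59 ± 0.21 and Col12a1 at -0.85 ± 0.29. Against wild type 1 rose, Col5a2 at 0.57 ± 0.14. In Acadl KO / Acadvl wt, Col12a1 fell by 1.06 ± 0.29 against the first control and 0 of the 8 passed against wild type, where Col3a1 was at -0.55 ± 0.43 and Col1a2 at -0.13 ± 0.22. Of 9 small leucine-rich proteoglycans, Podn and Ogn fell in Acadl KO / Acadvl wt against both controls, by 0.43 ± 0.14 and 0.75 ± 0.27, and by 0.55 ± 0.14 and 0.89 ± 0.26.

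**Figure D5:**
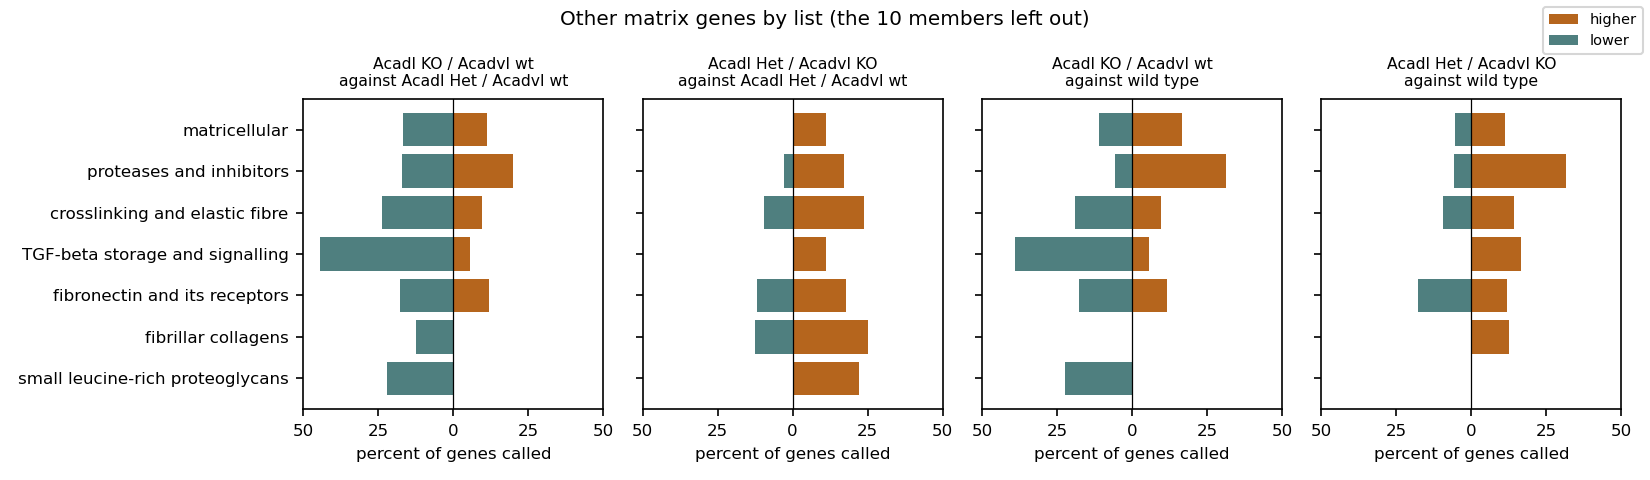
Share of the tested genes of each matrix list, without the 10 genes, that passed an edgeR adjusted p of 0.05 higher (brown, to the right) or lower (green, to the left) in 4 comparisons; axes are percent of the list. The list marked fibrillar collagens also holds Col8a1 and Col12a1, which are not fibrillar. The TGF-beta list has 8 and 7 of 18 genes lower in the panels of Acadl KO / Acadvl wt and 0 lower in those of Acadl Het / Acadvl KO. Panels with the same control share its libraries.

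Markers of immune cells were higher in Acadl Het / Acadvl KO mainly against wild type. Against wild type, where 15.1% of all genes rose, 5 of 9 macrophage genes rose in Acadl Het / Acadvl KO and 0 fell (Cd68 by 1.13 ± 0.22, C1qa by 0.69 ± 0.17, Lyz2 by 0.76 ± 0.20, Mrc1 by 0.52 ± 0.16 and Ccr2 by 1.56 ± 0.52). Their summed level was 288, 273, 380 and 487 CPM in its 4 libraries and 228 to 266 CPM in wild type, and 249 to 295 CPM in Acadl Het / Acadvl wt. The 2 libraries with the highest macrophage sum, replicates 3 and 4, were also the 2 with the highest Tnc, while Adam8 was highest in replicate 1. Replicate 3, the library with the highest Timp1, also stood apart in valve and tendon genes (98.0 CPM, against 56.8 to 69.3 in the other 3) and in epicardial and mesothelial genes (63.5 CPM, against 27.7 to 31.0). Also 3 of 5 neutrophil and monocyte genes and 3 of 6 lymphocyte genes tested rose. Sums there were 16.7 to 23.1 CPM against 13.4 to 16.5 CPM in wild type for the first, and 0.926 to 4.08 CPM against 1.05 to 1.79 CPM for the second. Against Acadl Het / Acadvl wt, where 12.9% of all genes rose, 2 of 9 macrophage and 1 of 5 neutrophil and monocyte genes rose, and 0 lymphocyte genes rose and 1 fell. So few genes cannot be set apart from that share, and the macrophage sums of replicates 1 and 2 lay within the range of that control. In both comparisons 3 of 8 cardiomyocyte genes fell, where 13.2% of all genes fell against wild type and 11.5% against Acadl Het / Acadvl wt. Of 9 fibroblast genes 2 rose against wild type, near the share of all genes, with sums of 2112 to 2411 CPM against 1812 to 2145 CPM in wild type. In Acadl KO / Acadvl wt against Acadl Het / Acadvl wt, where 16.7% of all genes fell, 2 of 9 fibroblast and 2 of 7 myofibroblast genes fell. These are too few genes to set apart from that share. Myofibroblast sums were 72.8 to 107 CPM against 119 to 172 CPM. Macrophage genes gave 0 calls there by edgeR, with sums of 215 to 284 CPM. No gene of these lists was at 0 counts in every library. The part of these cells in the values of Adam8, Timp1, Tnc or Fn1 was not tested.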

How the data were processed

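Heart RNA of 24 samples in 6 labelled genotypes was measured by polyA RNA-seq. Each deposited file holds whole-number counts of reads per gene symbol. Per the file headers, the authors ran featureCounts 1.5.2 over exons of UCSC mm10 genes, keeping primary alignments, ignoring strand and crediting a read to every gene it overlaps. Per the submitters' processing notes, the tools were featureCounts (given there as 1.5.3) and STAR (2.5.1b). From these counts, genes passing edgeR's filterByExpr (15804 of 24421) were fitted over all 24 libraries with edgeR 4.0.16 (TMM, quasi-likelihood, genotype plus isolation batch) and p-values were Benjamini-Hochberg adjusted over all of them, at a threshold of 0.05. SE is the log2 fold change divided by the square root of edgeR's F; 95% intervals are 1.96 SE. DESeq2 1.42.0, limma 3.58.1 (voom), RLE size factors, no filter, no batch term, single batches, single libraries left out and libraries above 10 CPM of Alb left out were alternatives. The fit was tested on simulated data. Libraries were compared within genotypes and none was a duplicate (lowest chi-square per degree of freedom 15.7 over 37 pairs).

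The 10 genes and all lists were chosen with earlier results of these data known. Other matrix genes are named by rule: up to 4 that passed per list and comparison, by smallest p, or the 2 most abundant; from these a few are described. Genes like the set are the 10 with the highest correlation at a mean of at least 1 CPM (log2 of CPM plus 0.1).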

Additional observations from a re-analysis of the deposited data

Results flagged for a closer look

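In 50 groups of 4 or 5 libraries (a gene in a genotype), 5 had a library farther from the others than Dixon's 95% limit allows. That limit is made for normally distributed values and was applied to CPM without logs, so no chance rate is given. In all 5 the library was the highest of its group. Timp1 stood at 26.7 CPM in replicate 3 of Acadl Het / Acadvl KO, next to 6.49 CPM. Postn stood at 43.1 CPM in replicate 2 of Acadl KO / Acadvl Het, next to 28.3 CPM, and Ltbp2 in the same library at 21.6 CPM, next to 5.52 CPM. Lox stood at 44.3 CPM in replicate 2 of Acadl KO / Acadvl wt, next to 23.1 CPM, a library with 61.7 CPM of Alb. Thbs3 stood at 15.6 CPM in replicate 4 of Acadl Het / Acadvl KO, next to 11.6 CPM.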

How the results depend on the processing

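Most of the values, and of the counts of the 10 genes that passed, kept their direction and their side of the threshold. The cause of each change below was not tested. Shares of all genes that passed were computed only for the edgeR fit over all libraries. Counts from the alternatives, here and above, therefore have no such share beside them. Against Acadl Het / Acadvl wt, Acadl KO / Acadvl wt gave 6 calls, 3 without the libraries above 10 CPM of Alb and 0 in isolation batch 1 with lone libraries kept (an alternative chosen after seeing the data, in which a lone library is assumed to vary like the other groups). Acadl Het / Acadvl KO gave 4, and 2 when only the genotypes compared were fitted or only batch 2 was used. Against wild type the 2 genotypes gave 4 and 5; the first gave 7 with only the genotypes compared, 1 without the Alb libraries and 0 in batch 1, and the second gave 2 in batch 2. Acadl KO / Acadvl Het against Acadl Het / Acadvl Het gave 5, and 3 in either batch. Against Acadl KO / Acadvl wt it gave 0, and 1 by DESeq2. In the direct contrast of Acadl KO / Acadvl wt with Acadl Het / Acadvl KO, 7 became 4 by limma voom, 3 with only the genotypes compared, 2 in batch 2, 2 without the Alb libraries and 0 in batch 1. With Acadl KO / Acadvl Het, 6 became 3 by limma voom and 0 in the other fits of that kind (only the genotypes compared, batch 2, batch 1). Leaving out 1 library gave 3 to 8 and 3 to 7 in these contrasts, 3 to 6 for Acadl Het / Acadvl KO against wild type, and 3 to 5 for Acadl KO / Acadvl Het against Acadl Het / Acadvl Het.

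Log2 fold changes that changed sign had not passed. In batch 1, and beside the value over all libraries, they were Fn1 0.21 (-0.06) and Postn 0.29 (-0.27) in Acadl KO / Acadvl wt against Acadl Het / Acadvl wt; Adam8 0.31 (-0.29), Fn1 0.02 (-0.13) and Postn 0.56 (-0.14) in that genotype against wild type. Likewise Lox -0.63 (0.72) and Timp1 -0.73 (0.02) in Acadl Het / Acadvl KO against Acadl Het / Acadvl wt, Lox -0.14 (1.05) against wild type, and Adam8 -0.19 (0.25) in Acadl KO / Acadvl Het against Acadl Het / Acadvl Het. In batch 2 they were Wisp1 0.04 (-0.41) in Acadl Het / Acadvl KO against wild type, Fn1 0.03 (-0.03) in Acadl KO / Acadvl Het against Acadl Het / Acadvl Het, Lox -0.00 (0.09) in the first direct contrast, and Ltbp2 0.30 (-0.28) and Postn 0.13 (-0.41) in the second. By limma voom Timp1 was at -0.35 and Tnc at -0.07 (0.27) in Acadl Het / Acadvl KO against Acadl Het / Acadvl wt, and Timp1 at -0.07 with only the genotypes compared. Without the Alb libraries Fn1 was at 0.00 in Acadl KO / Acadvl wt against Acadl Het / Acadvl wt, Adam8 at 0.01 against wild type and Lox at -0.30 in the first direct contrast.

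Leaving out 1 library moved signs for Fn1 (-0.15 to 0.06) and Postn (-0.51 to 0.02) in Acadl KO / Acadvl wt against Acadl Het / Acadvl wt, Postn (-0.37 to 0.04) in it against wild type, Timp1 (-1.08 to 0.31, where the lowest value passed) and Tnc (-0.50 to 0.58) in Acadl Het / Acadvl KO against Acadl Het / Acadvl wt, Fn1 (-0.07 to 0.03) in Acadl KO / Acadvl Het against Acadl Het / Acadvl Het, Lox (-0.28 to 0.37) in the first direct contrast, and Ltbp2 (-1.08 to 0.07) and Postn (-0.63 to 0.02) in the second. DESeq2 gave no adjusted p for Timp1, which therefore does not count among its calls. No paired analysis was possible because the labels give no replicate numbers, and those used here follow the order of deposit. The titles open with a number that some libraries share; its meaning is not stated, and no fit blocked on it was run. Depth limits Wisp1 most, at 5 reads in 1 library; genotype means without TMM scaling were 0.952 to 1.06 times those with it.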
